A study of Caenorhabditis elegans with 20 samples.

Results

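The UDP-glucuronosyl transferase (*ugt*) family of *C. elegans* was followed through exposure to the anthelmintic ivermectin (IVM) at 2 doses. Members were the probesets that the annotation of the array assigns to 1 gene with a symbol made of ugt- and a number, and 68 of the 20563 probesets tested met this rule. They stand for 64 of the 67 *ugt* genes in the RefSeq gene table. *ugt-34*, *ugt-49* and *ugt-65* have no such probeset, and 1 probeset that matches both *ugt-22* and Y43D4A.2 was left out. Of the 68 probesets, 15 carry the suffix _s_at, which marks probes that match more than 1 transcript. These transcripts may be of the same gene or of near-identical family members, whose signals could then not be told apart. The annotation assigns each of the 15 to 1 gene, and matches to other genes were not checked.

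UDP-glucuronosyl transferases join a sugar from a UDP-sugar donor, glucuronic acid or glucose, to small fat-soluble molecules, which makes these easier to dissolve and excrete. The reaction belongs to phase II of drug metabolism, after oxidation by cytochromes P450, and it also acts on hormones, pigments and other products of the body. The family is large in nematodes, where the conjugates made with foreign compounds are often glucosides.

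RNA was taken from whole worms of strain DA1316, which carries mutations in 3 subunits of glutamate-gated chloride channels, the target of IVM, namely *avr-14* (allele ad1302), *avr-15* (allele ad1250 in the sample labels, whereas the methods of the paper name another allele) and *glc-1* (allele pk54). All 20 arrays are from this mutant strain, grown for 53 hr from the L1 stage at 20 °C on plates with OP50 bacteria and then moved for 4 hr to the test plates. In the 1 µg/ml experiment 5 biological replicates were on IVM with 0.01% DMSO and 5 controls were on 0.01% DMSO alone. In the 100 ng/ml experiment 5 replicates were on IVM with 0.001% DMSO and 5 controls were on 0.001% DMSO alone. The worm suspension of each replicate was divided between drug and control plates, so arrays with the same number form a pair, and the experiments share no arrays. Dose, DMSO share and experiment change together and cannot be told apart, and the same replicate number in both experiments does not link worms.

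Values are log2 probeset intensities, on which a difference of 1 is a ratio of 2. No detection calls come with them, so a low value may be background, and intensities of different probesets were not ranked as amounts of RNA. The 4 *ugt* probesets with the highest mean over the 20 arrays were those of *ugt-62* (8.51), *ugt-58* (8.33), *ugt-44* (8.20) and *ugt-26* (8.07). The lowest means were those of *ugt-38* (3.03), *ugt-27* (3.14), *ugt-3* (3.36) and *ugt-56* (3.65). Of the 68 members, 28 had a mean above the median probeset of the array and 40 below it.

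Within each group of the 1 µg/ml experiment, the family varied more from replicate to replicate than most probesets did. The median SD of a member over 5 arrays was 0.39 with IVM at 1 µg/ml and 0.38 in its DMSO controls, whereas the median over all probesets was 0.25 in both groups. At 100 ng/ml the median SD of members was 0.27 with IVM and 0.25 in the controls, beside 0.24 for all probesets in both groups. The widest members among the DMSO controls of the 1 µg/ml experiment were *ugt-48* (probeset 189501_s_at, SD 1.13), *ugt-17* (SD 1.04) and *ugt-63* (SD 1.03). In those of the 100 ng/ml experiment they were *ugt-29* (SD 0.66), *ugt-22* (SD 0.64) and *ugt-17* (SD 0.62).

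Replicate 2 of the 1 µg/ml experiment stood apart on both of its arrays. The mean of 4 eggshell and yolk probesets was 5.94 with IVM and 6.81 in DMSO for this replicate, against 10.4 to 11.3 on the other 8 arrays of the experiment, and the yolk gene *vit-2* measured 4.36 with IVM and 5.18 in DMSO. The mean of 8 oocyte probesets was also low there, at 6.73 with IVM and 7.42 in DMSO. The same arrays held high values of the *ugt* family. The mean of the 68 members was 5.95 with IVM and 5.96 in DMSO in replicate 2, and it lay between 5.26 and 5.78 on the other 8 arrays. Replicate 2 had the highest of the 5 values for 44 of 68 members with IVM (27.2% of all probesets did) and for 30 of 68 in DMSO (25.3% of all probesets). Means of several tissue marker lists were higher on the arrays of replicates 1 and 2 than on those of replicates 3 to 5, in both groups, and so were those of the 68 members (5.64 to 5.96, against 5.26 to 5.44). This held for intestine (10.3 to 10.6, against 9.41 to 9.66), body wall muscle (8.84 to 9.6, against 7.74 to 8.18), hypodermis (9.01 to 9.68, against 8.29 to 8.53), neurons (7.54 to 8.38, against 6.95 to 7.33) and pharynx (7.65 to 8.27, against 6.83 to 7.45). So the split was not particular to the gut markers. In RNA from whole worms, more cells of a type and more RNA per cell cannot be told apart. The part of these differences in the results below was not tested beyond leaving out each replicate in turn.

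**Figure D1:**
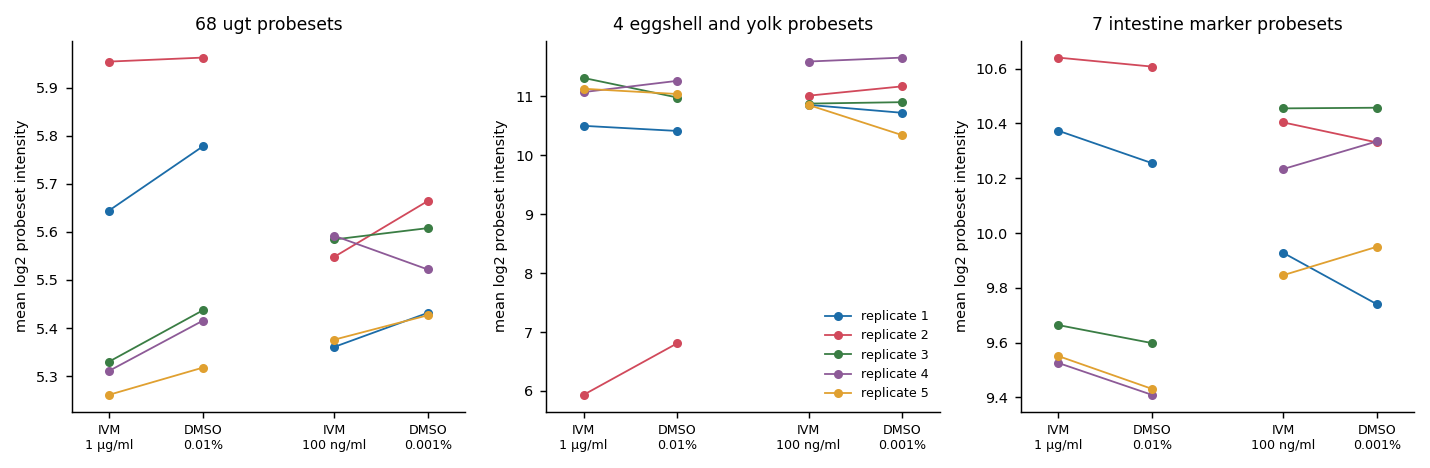
Mean log2 intensity on each array of the 68 *ugt* probesets (left), 4 eggshell and yolk probesets (middle) and 7 intestine marker probesets (right, as 1 of the 5 tissue lists that were higher in replicates 1 and 2), with lines joining the IVM and DMSO arrays of a replicate pair and a colour per replicate number. Replicate 2 of the 1 µg/ml experiment has the highest *ugt* means (5.95 and 5.96) and the lowest eggshell and yolk means (5.94 and 6.81).

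Between IVM at 1 µg/ml and its DMSO controls, members of the family moved in both directions. Levels of 8 probesets of 7 genes fell (*ugt-63*, *ugt-48* with 2 probesets, *ugt-16*, *ugt-12*, *ugt-60*, *ugt-22* and *ugt-47*) and levels of 5 probesets of 5 genes rose (*ugt-25*, *ugt-54*, *ugt-4*, *ugt-31* and *ugt-52*), at an adjusted p under 0.05 in limma with the replicate as a block. That is 19.1% of the 68 members, where 3.48% of all probesets passed. The higher members were 7.35% of the family (2.11% of all probesets were called higher) and the lower members 11.8% (1.37% of all probesets were called lower). No test of this share was made. The median log2 fold change of members, -0.04, was close to that of all probesets, -0.01, and 29 of the 68 members differed by less than 0.2 in either direction. Counted by pairs, 14 members were lower in all 5 pairs (7.97% of all probesets) and 8 were higher in all 5 (7.29% of all probesets).

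Calls in this experiment depended on the pairing and on single replicates. Without the replicate block none of the 13 probesets passed, with adjusted p of at least 0.0923 in limma. Of all probesets 45 were then higher and 19 lower. With 1 replicate left out, between 0 and 4 members were called higher and between 2 and 7 lower. Calls over all probesets moved too, from 434 higher and 281 lower to 145 and 60 without replicate 1. They were 352 and 235 without replicate 2 and 510 and 197 without replicate 3. Without replicate 4 they were 151 and 67, and without replicate 5 they were 358 and 267. Without replicate 2, the one with low yolk and eggshell markers, 3 members were higher and 7 lower, all among the 13.

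**Figure D2:**
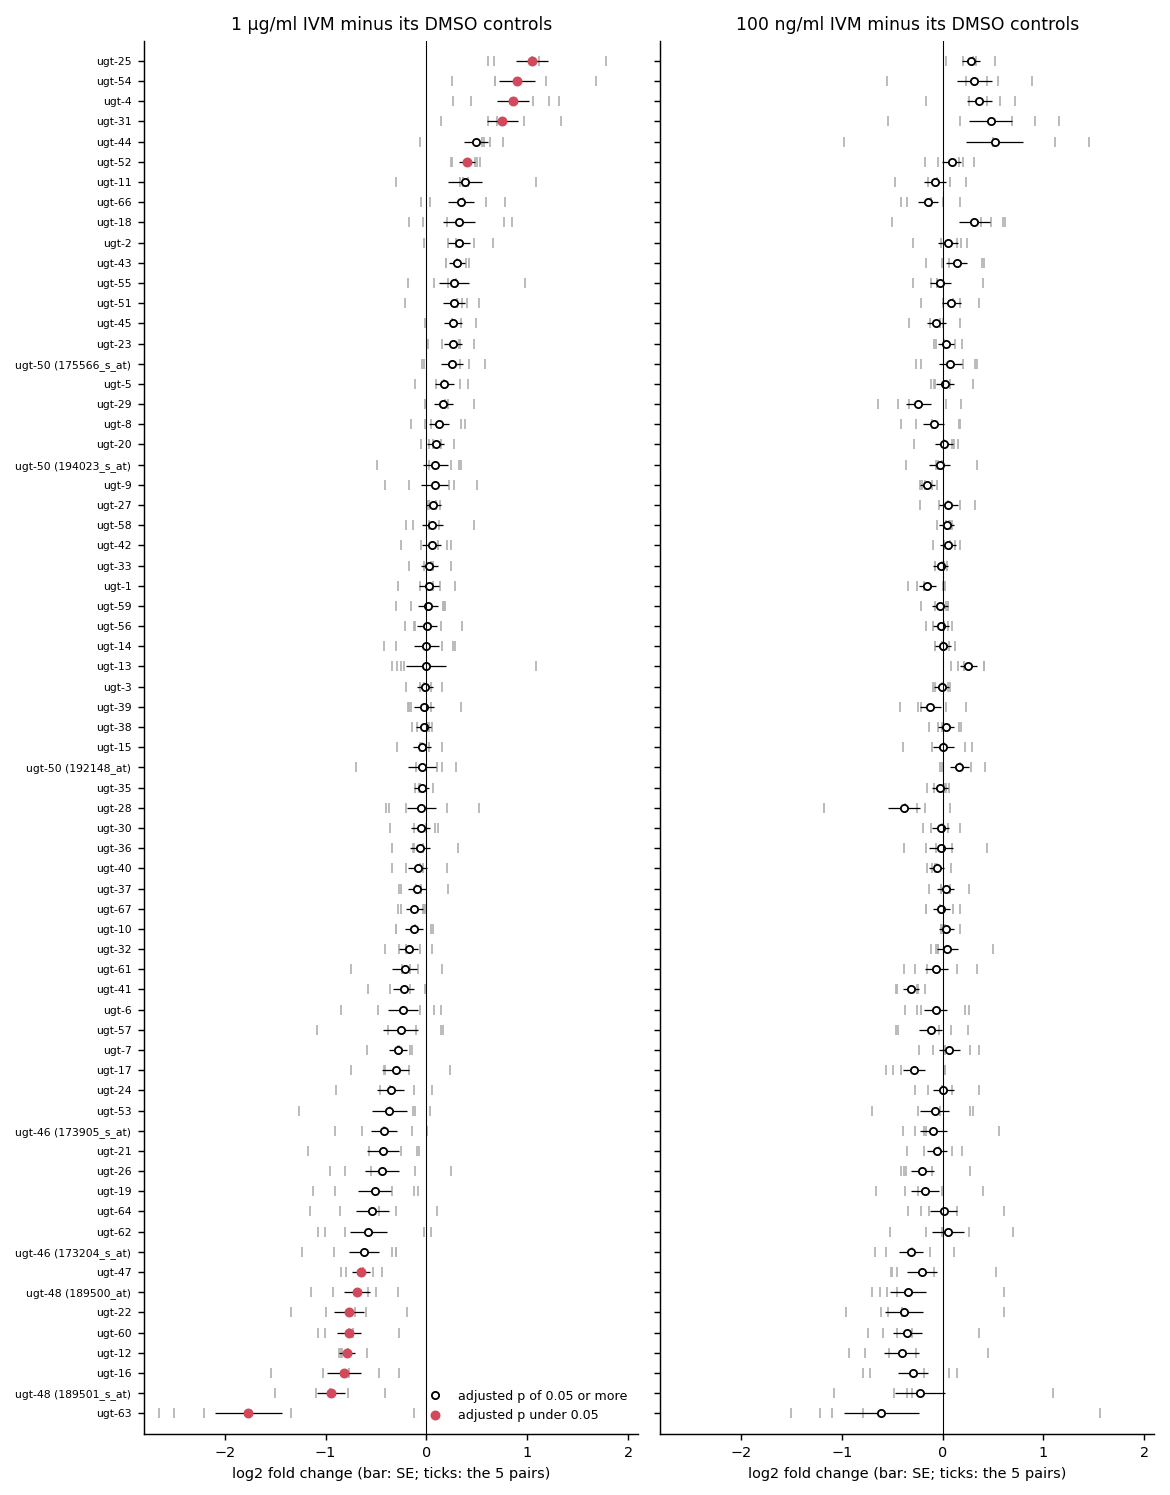
Log2 fold change of each of the 68 *ugt* probesets, IVM minus DMSO, at 1 µg/ml (left) and 100 ng/ml (right), with its SE as a bar and the 5 replicate pairs as grey ticks, in the order of the values at 1 µg/ml. At 1 µg/ml 13 probesets have an adjusted p under 0.05 (red), from *ugt-63* at -1.77 to *ugt-25* at 1.04, and at 100 ng/ml there are none.

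The probeset of *ugt-63* had the largest change in the family. It measured 5.66, 5.75, 6.11, 5.37 and 5.69 in replicates 1 to 5 with IVM at 1 µg/ml, against 8.16, 5.88, 8.32, 8.02 and 7.04 in the paired DMSO controls. All IVM arrays were low, and the groups overlapped only through the control of replicate 2, which was as low as the IVM arrays. Its level fell by 1.77 on the log2 scale (SE 0.33, adjusted p 0.0250). The pair difference was -0.13 in replicate 2 and between -2.65 and -1.35 in the others. Leaving out replicate 2 gave -2.18 (adjusted p 0.00165), and the call was lost without replicate 1, 3, 4 or 5, with adjusted p up to 0.124.

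Both probesets of *ugt-48* fell. Probeset 189501_s_at measured 5.34, 5.87, 4.09, 4.40 and 4.24 with IVM, against 6.44, 7.37, 5.05, 5.18 and 4.65 in DMSO, and its log2 level fell by 0.95 (SE 0.14, adjusted p 0.0106). Probeset 189500_at measured 6.32, 6.38, 5.28, 5.21 and 5.69 with IVM, against 7.47, 7.30, 5.77, 5.79 and 5.97 in DMSO, and its log2 level fell by 0.69 (SE 0.13, adjusted p 0.0248). Replicates 1 and 2 were high in both groups with both probesets, so that the groups overlapped although each pair was lower with IVM. The call of 189501_s_at was lost without replicate 1 (adjusted p 0.0655) and that of 189500_at without replicate 1, 2 or 4 (adjusted p up to 0.0916).

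*ugt-12* and *ugt-47* were the members that passed whichever replicate was left out. With IVM *ugt-12* measured 6.30, 7.21, 5.95, 6.02 and 5.81, against 7.16, 8.0, 6.79, 6.60 and 6.66 in DMSO, and its pair differences lay between -0.86 and -0.59. Its log2 fold change was -0.79 (SE 0.08) with an adjusted p of 0.00240, the lowest of any member. Replicate 2 was the highest in both groups and alone made them overlap. For *ugt-47* the IVM arrays measured 8.19, 7.82, 7.46, 6.98 and 7.19, against 8.63, 8.62, 8.09, 7.83 and 7.72 in DMSO. The IVM arrays of replicates 1 and 2 lay within the range of the controls and the other IVM arrays lay below it. The pair differences of *ugt-47* lay between -0.85 and -0.44, giving a mean of -0.65 on the log2 scale (SE 0.09, adjusted p 0.00794).

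The other 3 genes that fell were *ugt-16*, *ugt-60* and *ugt-22*. *ugt-16* measured 4.49, 5.51, 4.32, 4.49 and 4.45 with IVM, against 5.52, 7.05, 4.59, 5.26 and 4.92 in DMSO. Replicate 2 was far above the others in both groups, and 4 of the 5 IVM arrays lay below every control (log2 fold change -0.82, SE 0.17, adjusted p 0.0362). *ugt-60* measured 6.68, 7.31, 6.01, 6.03 and 6.08 with IVM, against 7.41, 7.58, 7.08, 7.03 and 6.85 in DMSO. Here too the IVM array of replicate 2 was the one that reached into the range of the controls (log2 fold change -0.77, SE 0.12, adjusted p 0.0119). *ugt-22* measured 7.15, 7.76, 6.63, 6.33 and 6.75 with IVM, against 7.85, 8.36, 7.63, 7.67 and 6.95 in DMSO. The pair difference of *ugt-22* was smallest in replicate 5, at -0.20, and largest in replicate 4, at -1.34, and the groups overlapped (log2 fold change -0.77, SE 0.15, adjusted p 0.0298). Each of these 3 calls was lost when replicate 1 or replicate 4 was left out, with adjusted p up to 0.161 for *ugt-16*, 0.0649 for *ugt-60* and 0.120 for *ugt-22*. That of *ugt-16* was also lost without replicate 5, and that of *ugt-22* without replicate 3.

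**Figure D3:**
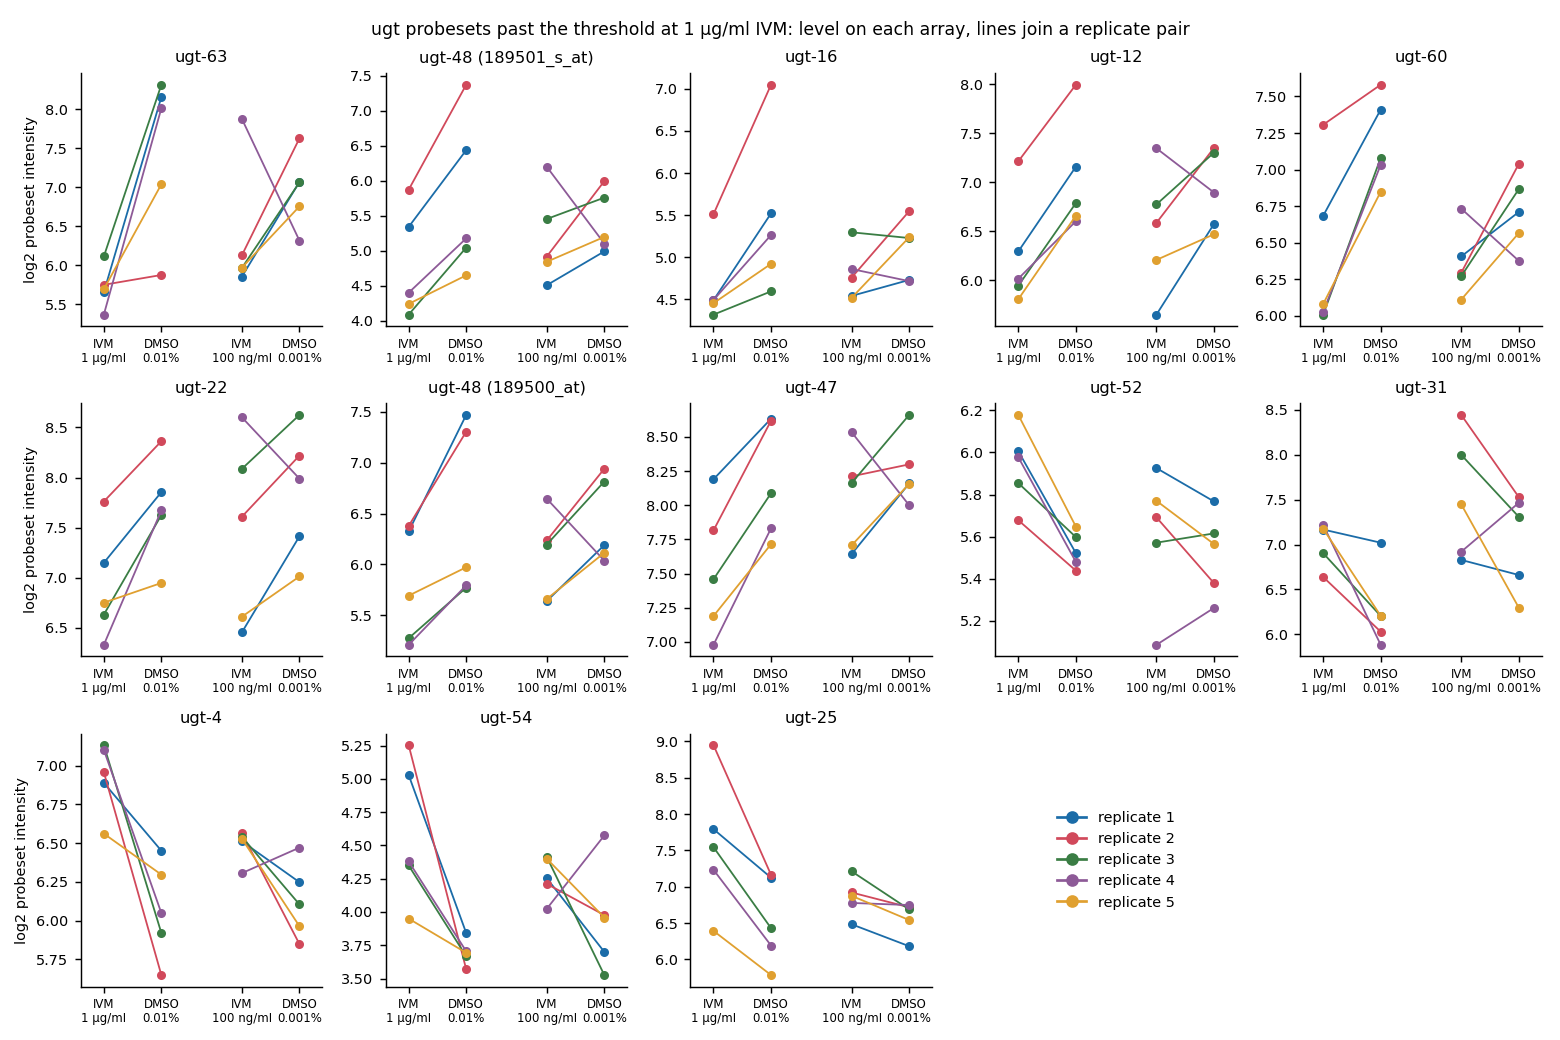
Log2 intensity on each array of the 13 *ugt* probesets with an adjusted p under 0.05 at 1 µg/ml, 1 panel each, with lines joining the arrays of a replicate pair and colours for replicates 1 to 5. At 1 µg/ml (left in each panel) all 5 lines run the same way for each probeset, and at 100 ng/ml (right) replicate 4 runs against the direction seen at 1 µg/ml for 12 of the 13.

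Of the genes that rose, *ugt-25* changed most. It measured 7.79, 8.95, 7.54, 7.23 and 6.39 with IVM at 1 µg/ml, against 7.12, 7.16, 6.43, 6.19 and 5.78 in DMSO. The IVM array of replicate 2 was the highest, and the groups overlapped because replicate 5 was low in both. The log2 fold change was 1.04 (SE 0.16, adjusted p 0.0117), and the call was lost only without replicate 4 (adjusted p 0.0591).

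*ugt-54*, *ugt-4* and *ugt-52* had every IVM array above every DMSO array at 1 µg/ml, which 0.987% of all probesets did. None of the 68 members had every IVM array below every control (0.608% of all probesets). A share this small leaves few to be found among 68, so that count does not set the family apart. *ugt-54* measured 5.03, 5.25, 4.35, 4.38 and 3.95 with IVM, against 3.84, 3.57, 3.67, 3.70 and 3.69 in DMSO (log2 fold change 0.90, SE 0.18, adjusted p 0.0357). The controls of *ugt-54* lay within a narrow range near the low end of the array, and the IVM arrays spread upwards from there, most in replicates 1 and 2. *ugt-4* measured 6.89, 6.96, 7.13, 7.10 and 6.56 with IVM, against 6.45, 5.65, 5.92, 6.05 and 6.30 in DMSO (log2 fold change 0.86, SE 0.16, adjusted p 0.0263). The rise of *ugt-4* was larger in replicates 2 to 4 than in replicates 1 and 5. *ugt-52* measured 6.01, 5.68, 5.85, 5.98 and 6.18 with IVM, against 5.52, 5.44, 5.60, 5.48 and 5.65 in DMSO (log2 fold change 0.40, SE 0.08, adjusted p 0.0369). This was the smallest change among the 13 probesets, between arrays of little spread.

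*ugt-31* measured 7.17, 6.64, 6.90, 7.22 and 7.18 with IVM at 1 µg/ml, against 7.02, 6.03, 6.20, 5.88 and 6.21 in DMSO. The control of replicate 1 was well above the other controls and made the groups overlap. The log2 fold change was 0.75 (SE 0.15, adjusted p 0.0351). Without replicate 4 none of the 5 rising genes passed, with adjusted p of 0.0591 to 0.151. *ugt-31* passed only without replicate 1, and *ugt-4* only without replicate 5. *ugt-54* passed without replicate 2 or 5, and *ugt-52* without replicate 2 or 3.

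The other 55 members did not pass, and their log2 fold changes lay between -0.62 and 0.49. The lowest of these was probeset 173204_s_at of *ugt-46*, lower in all 5 pairs. The paper names *ugt-46* among its down-regulated genes at 1 µg/ml, from another test, Rank Products, and a looser threshold than the one used here. It measured 7.64, 8.62, 6.57, 6.44 and 6.65 with IVM, against 7.94, 8.96, 7.49, 7.68 and 6.96 in DMSO (-0.62, SE 0.15, adjusted p 0.0671). The second *ugt-46* probeset, 173905_s_at, had -0.42 (SE 0.13, adjusted p 0.151). With both, replicates 1 and 2 were higher than the rest in either group. The 3 probesets of *ugt-50* ran between -0.05 and 0.25 with no call. Nearest to the threshold among higher values were *ugt-44*, which had 0.49 (SE 0.12, adjusted p 0.0705) and was higher in 4 of 5 pairs, and *ugt-43*, which had 0.30 (SE 0.08, adjusted p 0.0796) and was higher in all 5. At an unadjusted p under 0.05, 13 members were higher (8.05% of all probesets) and 18 lower (7.55% of all probesets).

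Replicate 4 of the 100 ng/ml experiment went against the other 4 pairs. Of the 715 probesets called at 1 µg/ml, 80.1% to 95.2% had their 1 µg/ml direction in each of replicates 1, 2, 3 and 5 at 100 ng/ml, but 7.41% did in replicate 4. Whether the IVM and DMSO labels of that pair are the right way round cannot be told from the labels. Were they exchanged, each difference of that pair would turn its sign and each value over 5 pairs at 100 ng/ml would change, so values are given as labelled and also without replicate 4.

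At 100 ng/ml no member passed, and neither did any other probeset (0% of 20563). The lowest adjusted p among members was 0.936 in limma. At an unadjusted p under 0.05 there were 3 higher and 6 lower members (2.3% and 2.06% of all probesets). The largest positive values were those of *ugt-44* (0.52, SE 0.28), *ugt-31* (0.48, SE 0.21), *ugt-4* (0.36, SE 0.12) and *ugt-18* (0.31, SE 0.16). The largest negative values were those of *ugt-63* (-0.61, SE 0.37), *ugt-12* (-0.41, SE 0.18), *ugt-28* (-0.38, SE 0.16) and *ugt-22* (-0.38, SE 0.19). Of these 8 genes 5 had passed at 1 µg/ml, and *ugt-44*, *ugt-18* and *ugt-28* had not. *ugt-25* and *ugt-13* were higher in all 5 pairs at 100 ng/ml (2.81% of all probesets), and *ugt-41* and *ugt-9* were lower in all 5 (2.29%). Each count is 2 of 68, near the share over all probesets, so neither sets the family apart. At 1 µg/ml *ugt-13* was higher in 1 of 5 pairs. In no member did the groups stay apart, with every IVM array above (0.0729% of all probesets) or below (0.0827%) every control.

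The members that had moved at 1 µg/ml shared this pattern with the rest of the array. Of the 13 called probesets, all 13 had their 1 µg/ml direction in replicates 1, 2 and 5 and 11 did in replicate 3, but only 1 did in replicate 4. *ugt-63* measured 5.86, 6.13, 5.97, 7.88 and 5.97 in replicates 1 to 5 with IVM at 100 ng/ml, against 7.07, 7.63, 7.06, 6.32 and 6.76 in DMSO. The difference was 1.56 in replicate 4 and -1.50 to -0.79 in the other 4 pairs, so the IVM array was the high one of its pair in replicate 4 alone. *ugt-12* likewise measured 5.65, 6.59, 6.77, 7.35 and 6.21 with IVM, against 6.58, 7.35, 7.30, 6.90 and 6.47 in DMSO. *ugt-44* ran the other way, at 9.08, 8.19, 8.58, 7.88 and 9.35 with IVM, against 7.64, 7.69, 8.08, 8.85 and 8.24 in DMSO. For *ugt-12* and *ugt-44* as well, replicate 4 was the pair that differed in direction from the other 4. Over the 8 probesets that fell at 1 µg/ml, the median difference in replicate 4 was 0.57, beside -0.75 to -0.45 in the other replicates of that experiment. Over the 5 that rose it was -0.18, beside 0.26 to 0.52. The eggshell and yolk mean of replicate 4 was the highest of that experiment, at 11.6 with IVM and 11.7 in DMSO, against 10.3 to 11.2 on the other 8 arrays. Its part in the result was not tested.

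Without replicate 4 of the 100 ng/ml experiment, 3 members were higher and 5 lower (1.52% of all probesets were then called, 0.977% higher and 0.545% lower). The higher ones were *ugt-44* at 0.89 (SE 0.16, adjusted p 0.0256), *ugt-31* at 0.73 (SE 0.15, adjusted p 0.0433) and *ugt-18* at 0.52 (SE 0.09, adjusted p 0.0264). The lower ones were *ugt-63* at -1.15 (SE 0.12, adjusted p 0.00184), *ugt-22* at -0.63 (SE 0.11, adjusted p 0.0240), *ugt-12* at -0.62 (SE 0.12, adjusted p 0.0362), probeset 189500_at of *ugt-48* at -0.58 (SE 0.09, adjusted p 0.0152) and *ugt-60* at -0.52 (SE 0.10, adjusted p 0.0380). Of these 8 probesets, 6 were also among the 13 called at 1 µg/ml, and all 8 had the same sign there. Over all 313 probesets called without replicate 4 the shares were 73.5% and 99%, so the counts set the members apart in neither respect. Leaving out replicate 1, 2, 3 or 5 in its place gave no call.

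Whether the change at 1 µg/ml differed from that at 100 ng/ml was tested as a contrast over all 20 arrays. No member passed (0.00486% of all probesets, which is 1 probeset), and at an unadjusted p under 0.05 there were 6 higher and 5 lower members (3.2% and 3.59% of all probesets). The largest differences in each direction, 1 µg/ml minus 100 ng/ml, were 0.76 for *ugt-25* (SE 0.20, adjusted p 0.609) and -1.16 for *ugt-63* (SE 0.57, adjusted p 0.756). So the data do not show that any *ugt* gene responded differently at the 2 doses, although with all 5 pairs the calls were made at 1 dose alone. The contrast values, counts and correlation given here include replicate 4 of the 100 ng/ml experiment as labelled, and without that pair the contrast gave no member either. Each of the 13 members that passed at the higher dose had an equal sign but a smaller value at the lower one. Without replicate 4 their values at the lower dose were larger in size. For example, *ugt-31* then had 0.73 (0.75 at 1 µg/ml) and *ugt-25* had 0.34 (1.04 at 1 µg/ml). Over all 715 probesets that passed at the higher dose, 93.7% had an equal sign and 99.3% a smaller value, all of them having been chosen for their values at the higher dose. Of the 68 members, 44 (64.7%) had the same sign at both doses, and 58.5% of all probesets did. Across the 68 members the log2 fold changes at the 2 doses had a Pearson r of 0.77, which is given as a description, since probesets measured on the same arrays are not independent.

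**Figure D4:**
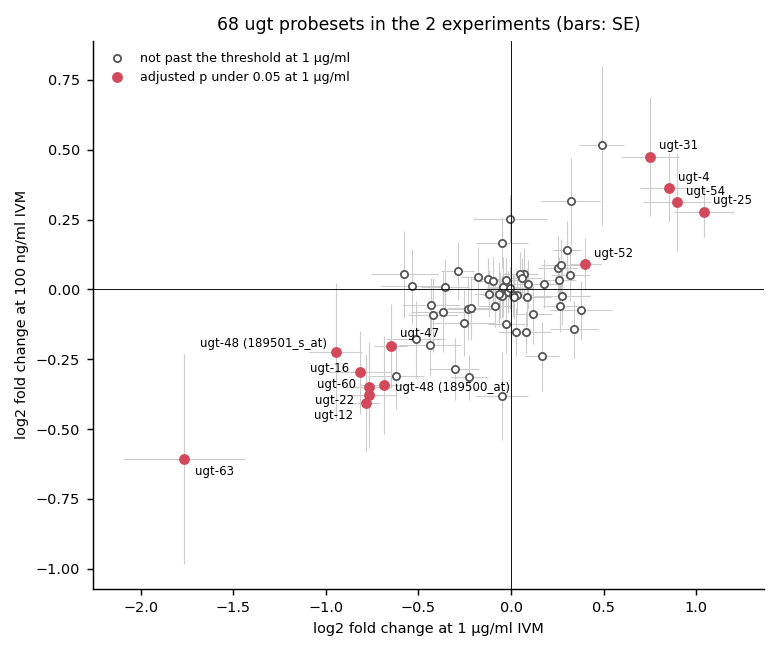
Log2 fold change of the 68 *ugt* probesets at 1 µg/ml (horizontal) and 100 ng/ml (vertical), with SE as grey bars. The 13 probesets with an adjusted p under 0.05 at 1 µg/ml (red, named) lie to the lower left and the upper right of the crossing lines, with smaller values at 100 ng/ml than at 1 µg/ml. All replicate pairs are included as labelled.

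Many *ugt* genes lie beside each other in the genome, so neighbours were compared. Of the 64 genes, 40 are on chromosome V and 11 on chromosome IV, and taking genes no more than 5 protein-coding genes apart as 1 cluster gave 10 clusters that hold 35 genes, with 29 genes alone. Of the 12 genes called at 1 µg/ml, 7 stand alone. In no cluster did more than 1 gene pass. In the cluster of 8 on chromosome V that runs from *ugt-12* to *ugt-13*, *ugt-12* fell (-0.79), while its neighbour *ugt-11* had 0.38 (SE 0.17, adjusted p 0.322) and the other 6 genes lay between -0.12 and 0.12. On chromosome I, *ugt-25* rose (1.04) beside *ugt-26* with -0.44 (SE 0.17, adjusted p 0.243), *ugt-28* with -0.05 and *ugt-27* with 0.07. In the cluster of *ugt-3*, *ugt-4*, *ugt-5* and *ugt-6* on chromosome V, *ugt-4* rose (0.86) and the others had -0.02, 0.18 and -0.23. *ugt-16* fell (-0.82) between *ugt-18* with 0.32 and *ugt-15* with -0.05, and *ugt-47* fell (-0.65) beside *ugt-17* with -0.30 (SE 0.13, adjusted p 0.310). The 6 neighbours *ugt-36* to *ugt-41* lay between -0.23 and -0.02, and none of them passed. Differences between neighbours were not tested.

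**Figure D5:**
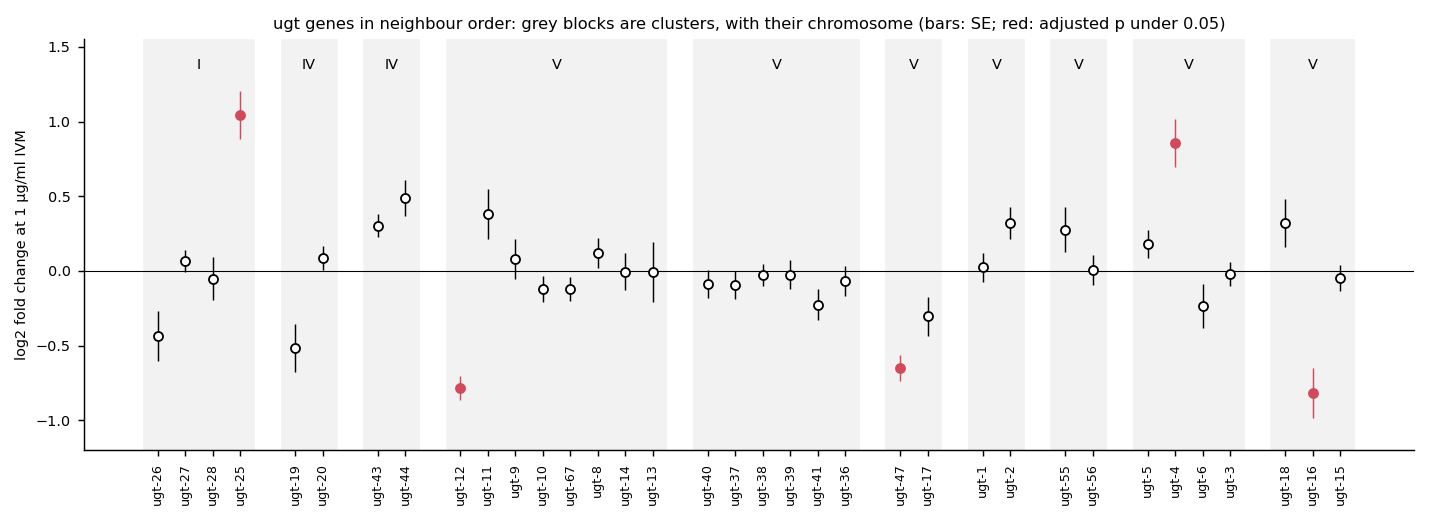
Log2 fold change at 1 µg/ml IVM, with SE, of the 35 *ugt* genes that lie in clusters, in chromosome order within each grey block and with the chromosome above it. Red points (adjusted p under 0.05) are *ugt-25*, *ugt-12*, *ugt-47*, *ugt-4* and *ugt-16*, 1 at most in each cluster.

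Other enzyme families of drug metabolism were set beside *ugt* at 1 µg/ml. Of 75 cytochrome P450 (*cyp*) probesets, whose products carry out the oxidations of phase I, 7 were higher and 1 lower. Of 41 glutathione S-transferase (*gst*) probesets, another phase II family, none was higher and 4 were lower. Over all probesets 2.11% were called higher and 1.37% lower, and differences from these shares were not tested. No probeset of either family passed at 100 ng/ml, where 0% of all probesets did.

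No tested gene that supplies the sugar donor passed at either dose. Of 14 genes listed for the making and transport of UDP-sugars, 11 have a probeset assigned to that gene alone. At 1 µg/ml none of these passed. The others, *gale-1* among them, were not tested, and the paper names *gale-1* among the genes down-regulated at 1 µg/ml. The lowest p values were those of the nucleotide-sugar transporter genes *nstp-3* (-0.35, SE 0.11, adjusted p 0.158) and *nstp-2* (-0.28, SE 0.09, adjusted p 0.180) and of D1005.2 (-0.17, SE 0.08, adjusted p 0.362). *sqv-4*, whose product turns UDP-glucose into UDP-glucuronic acid, had -0.21 (SE 0.11, adjusted p 0.436). None of 14 probesets for other enzymes that use UDP-sugars passed either, which is also near the share over all probesets. Among these *uggt-1*, which marks misfolded glycoproteins with glucose, had -0.22 (probeset 174634_at, SE 0.09, adjusted p 0.266), and *sqv-3*, a galactosyltransferase of proteoglycan synthesis, had -0.28 (SE 0.12, adjusted p 0.281).

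Of 21 probesets for regulators tied to drug response genes, 1 passed at 1 µg/ml and none at 100 ng/ml. Over all probesets 3.48% and 0% passed, so these counts do not set the regulators apart. *pqm-1*, a zinc-finger transcription factor, rose by 0.74 (SE 0.10, adjusted p 0.00794), with means of 8.72 with IVM and 7.98 in DMSO. Next by p came *wdr-23*, whose product marks SKN-1 for breakdown, with 0.40 (SE 0.11, adjusted p 0.102), and *aha-1*, the partner of AHR-1 and HIF-1, with 0.31 (probeset 172057_x_at, SE 0.09, adjusted p 0.135). *skn-1* itself, which drives phase II genes in the intestine, had 0.43 (SE 0.17, adjusted p 0.278). The median of the 21 probesets was 0.21, beside -0.01 over all probesets. The tissue lists for intestine (0.25), pharynx (0.24), body wall muscle (0.23) and neurons (0.21) had similar medians. Those for hypodermis (-0.18), germline (-0.07), sperm (0.0001), oocytes (-0.19) and eggshell and yolk (-0.08) were lower. So the value was not particular to the regulators.

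Markers of tissues were read beside these results. Of 7 intestine probesets at 1 µg/ml, the gut esterase gene *ges-1* rose by 0.91 (SE 0.09, adjusted p 0.00240), the brush border actin gene *act-5* fell by 1.11 (SE 0.21, adjusted p 0.0253), and 5 did not pass. Their mean was 9.53 to 10.6 with IVM and 9.41 to 10.6 in DMSO at 1 µg/ml. Of 8 neuron probesets 2 were higher, for the neuropeptide-processing genes *egl-21* (0.58, SE 0.09, adjusted p 0.0108) and *egl-3* (192571_s_at, 0.41, SE 0.09, adjusted p 0.0377). No probeset of the hypodermis, pharynx, body wall muscle, germline, sperm, oocyte or eggshell and yolk lists passed. Over all probesets 2.11% were called higher and 1.37% lower at 1 µg/ml, which leaves few to be found in lists this short. Differences of the lists from these shares were not tested. The part of any of the markers in the *ugt* results was not tested either.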

How the data were processed

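RNA of whole DA1316 worms was hybridised to 20 Affymetrix *C. elegans* GeneChips. The deposited series table holds log2 intensities from RMA, which the authors name with no version, and values run from 2.74 to 14.2. A genome build was not given in the sources used here. After 12 spike-ins were dropped from 20575 probesets, 20563 were tested whatever their intensity. Log2 fold changes, IVM minus DMSO, were fitted in limma 3.58.1 (R 4.3.3) on the 10 arrays of each dose with the replicate number as a block (4 residual degrees of freedom), and the contrast of doses over 20 arrays with 10 blocks (8 residual degrees of freedom). Benjamini-Hochberg adjustment covered the whole table, and an error given as SE is the moderated standard error. The number of arrays limits the precision.

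Pairing comes from the methods, in which each suspension was split, and from the replicate numbers. After the condition means were taken off, arrays of a pair correlated at 0.499 to 0.884 at 1 µg/ml and 0.553 to 0.883 at 100 ng/ml. In replicate 3 at 1 µg/ml and replicate 5 at 100 ng/ml another control was closer.

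Genes were named from the platform annotation, and all 68 member symbols were found in RefSeq's table for assembly WBcel235, which also gave chromosomes and neighbours. The description text of the samples, which names another drug on some arrays, conflicts with their titles and was not used. The 3 kinds of pathway list and the marker lists, like the members, were chosen with earlier results of these data known. Named with values were members called in any fit, at each dose the 4 most positive and most negative, the 4 highest and lowest means, the widest among controls, genes with several probesets, those passing at 100 ng/ml with 1 pair left out, neighbours of called genes, *ugt-46*, and per pathway list the calls and up to 3 more with the lowest p. *sqv-4* and *skn-1* were added for their roles after values were seen. Alternatives were a fit without the block, all 20 arrays in 1 fit, arrays centred on their medians, a further quantile normalization, probesets above the median mean alone, array quality weights, a trended and robust eBayes, the mean of a gene's probesets, an adjusted p under 0.10 and each replicate left out. The fits were tested on simulated data. Rank Products, which the authors name for assigning significance, and promoter and protein sequences were not analysed here. Plots were drawn with matplotlib 3.10.9 and pandas 2.3.3.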

Additional observations from a re-analysis of the deposited data

Results flagged for a closer look

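In 78 groups of 5 values checked, levels in each group and pair differences of the probesets called at 1 µg/ml, 6 held 1 value far from the other 4. Chance gives about 1 such group in 20. At 100 ng/ml, 4 of the 6 were in replicate 4: the *ugt-63* level with IVM, 7.88 where the others were 5.86 to 6.13, the *ugt-63* difference, 1.56 where the others were -1.50 to -0.79, the *ugt-48* difference (189500_at), 0.61 where the others were -0.70 to -0.45, and the *ugt-4* level with IVM, 6.31 where the others were 6.51 to 6.56. At 1 µg/ml, the *ugt-16* level with IVM was 5.51 in replicate 2 where the others were 4.32 to 4.49, and the *ugt-31* level in DMSO was 7.02 in replicate 1 where the others were 5.88 to 6.21. These values stand beside the results they touch, and their source was not tested.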

How the results depend on the processing

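No probeset called at 1 µg/ml turned its direction there under any alternative. Of the 55 not called, 16 changed sign with 1 replicate left out, all with a log2 fold change within 0.083 of 0. At 1 µg/ml, where 5 members were higher and 8 lower, the fit without the replicate block gave 0 higher and 0 lower (45 and 19 of all probesets). Probesets above the median mean alone gave 3 higher and 7 lower among the 28 members left (428 and 311 of all probesets left). In the main fit the same 28 members had 3 higher and 6 lower. All 20 arrays in 1 fit gave 4 higher and 9 lower (541 and 375 of all probesets), with *ugt-31* lost (adjusted p 0.061). An adjusted p under 0.10 in the main limma fit gave 7 higher and 9 lower (701 and 533 of all probesets), with probeset 173204_s_at of *ugt-46* among the lower ones. With 1 replicate left out the counts were 0 to 4 higher and 2 to 7 lower. The lowest came without replicate 4 (0 higher, 3 lower) and replicate 1 (2 higher, 2 lower). Of all probesets 151 were higher and 67 lower without replicate 4, and 145 and 60 without replicate 1. At 100 ng/ml leaving out replicate 4 gave 3 higher and 5 lower, where all 5 pairs and every other alternative gave 0. The contrast of doses gave no member under any alternative. Quantile normalization and centring on medians kept all 13 calls and shifted no array by more than 0.0865. The cause of the dependence on single replicates was not tested. With 5 pairs, 4 residual degrees of freedom and no detection calls, small changes and changes of dim probesets can be missed, and a value that missed the threshold does not show that a gene did not change.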

Other observations

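The DMSO controls of the 2 experiments, which differ in DMSO share, had overlapping values for all 68 *ugt* probesets. Of all probesets, 0.841% were higher on every control array of the 1 µg/ml experiment than on every control of the 100 ng/ml experiment. Another 0.209% were lower. Shares this small leave few to be found among 68, so the overlap does not set the family apart. Of the 28 members with a mean above that of the median probeset, 3 rose and 6 fell at 1 µg/ml. Of the 40 below it 2 rose and 2 fell. The same split was not made over all probesets, so whether it is particular to the family was not tested.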
